A study of Mus musculus with 4 samples.

Results

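Sox4 and 8 genes of naive or resting T cells (Tcf7, Lef1, Klf2, S1pr1, Ccr7, Il7r, Id3 and Bach2) were followed in mouse induced regulatory T (iTreg) cells cultured with or without ferrous iron. All 9 symbols matched a row among the 47729 gene rows of the count matrix, and all 9 were among the 13732 genes that passed the filter on low counts. The genes were picked by name, with their values in FeSO4 and Mock libraries already known. Their differences between these groups are therefore given as a description, and the p-values of the fit serve only to say which of them passed its threshold in which setting, not as support for a difference.

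CD4 T cells came from C57BL/6 mice. The labels name the spleen as their source, whereas the study's methods describe naive cells purified from spleen and lymph nodes together and stimulated through CD3 and CD28. The medium of all cultures contained blocking antibodies to IL-4 and IFN-γ (5 μg/mL each), IL-2 (100 U/mL) and TGF-β (5 ng/mL), so Mock cells were themselves driven towards the Foxp3+ fate. They were kept for 4 days with FeSO4 (50 μM, 2 libraries) or PBS (Mock, 2 libraries). The mice were 6 to 8 weeks old per the study's general statement on animals, and how many gave cells for these cultures was not given in the sources used here. The culture was not described as sorted for Foxp3+ cells, so a library may mix cells that did and did not convert. In such bulk RNA, fewer cells that express a gene and less RNA of it per cell cannot be told apart.

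A naive CD4 T cell is held in a resting, recirculating state by a small set of transcription factors. FOXO1 is active while signaling through the antigen receptor is low, and it sustains Klf2, S1pr1, Ccr7 and Il7r. TCF-1 (Tcf7) and LEF-1 (Lef1) are paired HMG-box factors that bind the same DNA motif and keep naive and memory potential. Activation lowers most of these genes, and effector cells replace them with factors such as Blimp-1. Sox4, another HMG-box gene, is a known target of TGF-β in T cells.

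The gene rows held 35183187 to 40859178 reads per library, so that a count of 0 would allow at most 0.0717 to 0.0876 CPM (3 counts on the TMM-scaled library size, counting error only; CPM is counts scaled to library size). The T cell markers Cd3e, Cd3d, Cd3g, Cd4, Cd5, Cd28 and Trac were present in every library, with sums of 2589 and 2442 CPM (Mock) against 2948 and 3010 CPM (FeSO4). The 7 B cell markers summed to 7.32 CPM in Mock replicate 1 and to 2.59 to 2.71 CPM in the other 3 libraries, with Igkc at 156 reads in Mock replicate 1 and at 3 to 8 elsewhere, and Ms4a1 at 1 read and 0. The 9 myeloid markers summed to 6.38 CPM in Mock replicate 1 and to 1.28 to 1.63 CPM in the others, with Lyz2 at 164 reads against 8, 0 and 0. The 4 erythroid markers summed to 25.19 and 19.75 CPM in Mock and to 37.6 and 32.6 CPM in FeSO4, nearly all of it Hba-a1, which rose by 0.665 ± 0.115 on the log2 scale (SE; edgeR adjusted p = 0.000999). Some B and myeloid cells express Klf2, Ccr7 and Bach2, and for the 9 genes the values without Mock replicate 1 are given where it changes a call. Foxp3 was at 587 and 693 CPM in Mock against 376 and 472 CPM in FeSO4. The study stained Foxp3 protein in iTreg cells and found that iron sulfate had little effect on its induction, whereas these values are RNA. Of 5 other Treg markers, 3 also fell in the FeSO4 libraries (Ikzf2 by 0.79 ± 0.15, Nrp1 by 0.75 ± 0.09 and Itgae by 0.47 ± 0.08 on the log2 scale, SE; edgeR adjusted p = 0.0018, 3.43e-05 and 0.00103). The Ikzf2 call was lost with DESeq2, and its log2 fold change was -0.51 without Mock replicate 2. The other 2 markers overlapped between the groups, with log2 fold changes of 0.02 for Il2ra and 0.17 for Ctla4 (edgeR adjusted p = 0.843 and 0.244). Without FeSO4 replicate 1, Ctla4 was called higher (0.35, edgeR adjusted p = 0.0116). Their part in the differences described here was not tested.

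The sequence upstream of Sox4 is shown because Sox4 had the largest difference of the 9 genes. These are the 250 bases before its RefSeq start (GRCm38.p6, chr13:28953700-28953949, minus strand), with capitals marking CANCTG, an E-box form bound by E proteins, the factors that Id3 holds back.

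Sox4: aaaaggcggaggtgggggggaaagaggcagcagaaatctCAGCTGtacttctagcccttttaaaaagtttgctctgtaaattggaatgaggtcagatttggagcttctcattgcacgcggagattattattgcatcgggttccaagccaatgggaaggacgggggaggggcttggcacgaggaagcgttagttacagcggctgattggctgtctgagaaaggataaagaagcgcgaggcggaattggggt

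Upstream windows of 250 bases were found for 7 of the 9 genes (11 windows, since Lef1 has 4 starts and Tcf7 has 2; S1pr1 and Ccr7 had no entry). They were searched on both strands for letters bound by the factors encoded here or upstream of them. The only Bach2 window, both Tcf7 windows and the last 2 Lef1 windows lie before internal starts, within the span of their own gene. The TCF/LEF letters CTTTGA were present before the internal Bach2 start and before the most downstream Lef1 start, in 2 of 11 windows against 13.8% of 32851 windows. The KLF letters CCACCC stood in 6 of 11 windows (28.1% of all), CANCTG in 4 (44.8%), and the HIF letters ACGTG in 1 (16.6%). The first 2 Lef1 windows overlap and share their CCACCC. The letters GTAAACA (FOXO, 3.17% of all windows), AACAAT (SOX, 9.42%) and TGAGTCA (AP-1 and BACH, 4.46%) were not found in these 11 windows. The following stretches of 28 bases, written along the gene, show the TCF/LEF letters and examples of the KLF letters in capitals.

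Bach2, chr4:32417332-32417359, plus strand: tgtgttgttcTCAAAGttgagtagagtt

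Lef1, chr3:131156104-131156131, plus strand: aaatacatggTCAAAGgaaaataggtat

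Lef1, chr3:131156164-131156191, plus strand: ttgtctgttcTCAAAGtcaggtcttgca

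Lef1, chr3:131110211-131110238, plus strand: tccctcctccCCACCCctccagcaggca

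Klf2, chr8:72319033-72319060, plus strand: tataaggcctGGGTGGgccgggccacag

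Id3, chr4:136143728-136143755, plus strand: gggcgggcggGGGTGGacccttggcggt

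A match of letters in such a window is a description of the sequence, not a binding site found in these cells.

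In FeSO4, 7 of the 9 genes were lower than in Mock and 2, Tcf7 and Il7r, were higher. The FeSO4 and Mock libraries did not overlap for any of the 9, where 29.4% of all tested genes had both FeSO4 libraries below both Mock libraries and 30.1% had them above. All 9 were past an adjusted p of 0.05 in edgeR's quasi-likelihood test, against 19.5% of all tested genes (8.89% lower, 10.6% higher). Because the genes were picked with these values known, nothing is read from that count. The threshold was missed by S1pr1 (-0.22) and Ccr7 (-0.20) without Mock replicate 1, by S1pr1 (-0.21) without Mock replicate 2, by Lef1 (-0.24), S1pr1 (-0.14) and Ccr7 (-0.18) without FeSO4 replicate 1, and by Tcf7 (0.17) without FeSO4 replicate 2 (log2 fold changes). Tcf7 also missed the threshold with library size only (0.20). Sox4 stood far apart from the rest, with a median log2 fold change of -0.36 over the 9 genes and 0.00 over all tested genes.

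**Figure D1:**
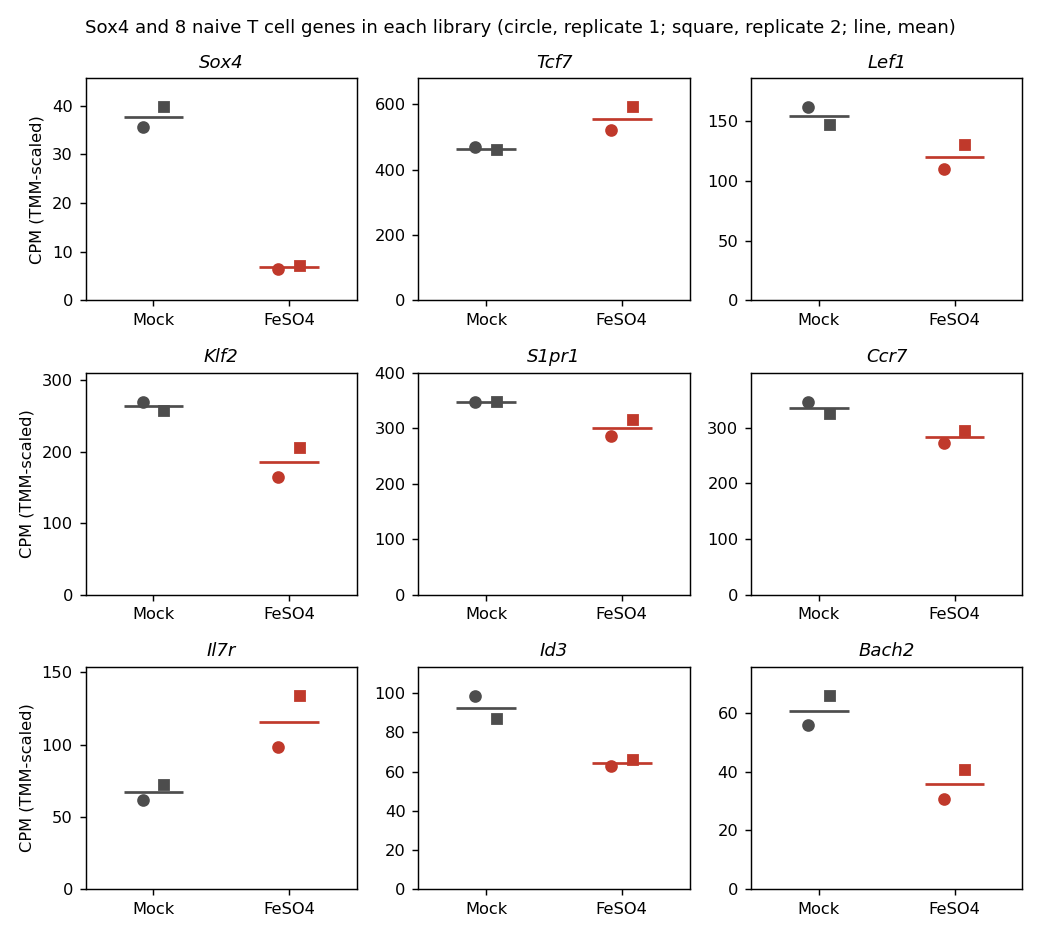
CPM (TMM-scaled) of the 9 genes in each of the 4 libraries, 1 panel per gene with its own axis from 0. Circles are replicate 1, squares are replicate 2, and lines are group means. Sox4 dropped from 37.6 to 6.78 CPM, while Tcf7 and Il7r lay higher in both FeSO4 libraries.

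Sox4 (ENSMUSG00000076431) encodes an HMG-box factor that in CD4 T cells is known to oppose GATA3 and the Th2 fate downstream of TGF-β. It was at 35.6 and 39.6 CPM in Mock replicates 1 and 2 and at 6.39 and 7.16 CPM in FeSO4 replicates 1 and 2. The counts behind these values were 1444 and 1657 reads against 219 and 265. The replicates of each group lay close together, and the FeSO4 mean was 18.0% of the Mock mean (37.6 ± 2.85 to 6.78 ± 0.542 CPM, SD, n = 2 each). The log2 fold change was -2.47 ± 0.12 (SE), and with any 1 library left out it ranged from -2.55 to -2.39. Ranked by log2 fold change, it came lowest among 8522 tested genes averaging 10 CPM or more. Sox4 lies on chromosome 13 at 28948919 to 28953699 (GRCm38.p6, minus strand). In GENCODE M1 its exons overlap those of the noncoding RNA gene Gm17419 on the other strand and of another gene ID also named Sox4, neither of which matched a row of the count matrix.

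Tcf7 (ENSMUSG00000000782, chromosome 11 at 52246527 to 52283383) encodes TCF-1. It was at 469 and 459 CPM in Mock against 521 and 591 CPM in FeSO4. Both FeSO4 libraries were higher, but they differed more from each other than the Mock libraries did. The log2 fold change was 0.26 ± 0.07 (SE). Leaving out FeSO4 replicate 2 gave 0.17, and leaving out FeSO4 replicate 1 gave 0.35.

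Lef1 (ENSMUSG00000027985, chromosome 3 at 131110297 to 131224357) encodes the partner of TCF-1 and moved the other way. It was at 162 and 147 CPM in Mock against 110.4 and 130.5 CPM in FeSO4, so that FeSO4 replicate 2 came closest to Mock. The log2 fold change was -0.36 ± 0.08 (SE), or -0.24 if FeSO4 replicate 1 was left out and -0.48 if FeSO4 replicate 2 was. The 2 paired HMG-box factors thus had opposite signs, also with each of the 4 libraries left out in turn.

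Klf2 (ENSMUSG00000055148, chromosome 8 at 72319062 to 72321654) encodes the Kruppel-like factor that holds T cells in quiescence and switches on S1pr1. It was at 270.0 and 257 CPM in Mock against 165 and 206 CPM in FeSO4. This gave a log2 fold change of -0.51 ± 0.09 (SE), with -0.67 if FeSO4 replicate 2 was left out and -0.35 if FeSO4 replicate 1 was. Both FeSO4 libraries were lower than Mock, by an amount that depended on the FeSO4 library.

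S1pr1 (ENSMUSG00000045092, chromosome 3 at 115710433 to 115715055) encodes the sphingosine 1-phosphate receptor that lets T cells leave lymph nodes. It was at 347.9 and 347.8 CPM in Mock against 286 and 315 CPM in FeSO4, a log2 fold change of -0.21 ± 0.06 (SE). Without FeSO4 replicate 1 it was -0.14. Ccr7 (ENSMUSG00000037944, chromosome 11 at 99144199 to 99155077) encodes the chemokine receptor that brings T cells into lymph nodes. It was at 347.1 and 324.5 CPM in Mock against 272.5 and 294.8 CPM in FeSO4. Ccr7 thus had a log2 fold change of -0.24 ± 0.07 (SE), or -0.18 and -0.20 if FeSO4 replicate 1 or Mock replicate 1 was left out. The receptors for exit from and entry into lymph nodes were both slightly lower.

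Il7r (ENSMUSG00000003882, chromosome 15 at 9506159 to 9529941) encodes the IL-7 receptor α chain, the survival receptor of naive and memory T cells, which Treg cells carry at low level. It was at 61.9 and 72.3 CPM in Mock against 98.0 and 134 CPM in FeSO4. Of Klf2, S1pr1, Ccr7 and Il7r, named above as sustained by FOXO1, only Il7r was higher in FeSO4. The FeSO4 libraries differed widely in Il7r. Its log2 fold change of 0.79 ± 0.12 (SE) became 0.55 if FeSO4 replicate 2 was left out and 0.998 if FeSO4 replicate 1 was.

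Id3 (ENSMUSG00000007872, chromosome 4 at 136143822 to 136145392) encodes an inhibitor of E proteins that naive and Treg cells express. It was at 98.7 and 86.6 CPM in Mock against 62.8 and 65.8 CPM in FeSO4. The log2 fold change was -0.53 ± 0.08 (SE), and it ranged from -0.61 to -0.44 with 1 library left out. Bach2 (ENSMUSG00000040270, chromosome 4 at 32238413 to 32586109) encodes a repressor that competes with AP-1 factors and restrains effector programs. It was at 55.9 and 65.9 CPM in Mock against 30.8 and 40.7 CPM in FeSO4. The log2 fold change of -0.77 ± 0.12 (SE) was the largest decrease after Sox4, and it ranged from -0.98 to -0.58 with 1 library left out. Part of the Bach2 exons overlap BC024582 on the other strand, which had 17 and 25 reads in Mock and 3 and 8 in FeSO4, few beside the 1056 to 2756 reads of Bach2.

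**Figure D2:**
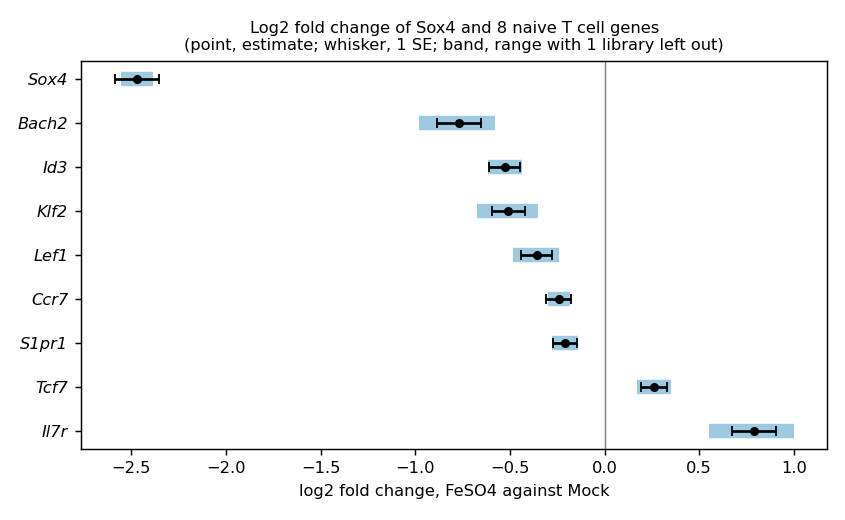
Log2 fold change of FeSO4 against Mock (x axis) for the 9 genes (y axis). Points are edgeR estimates, whiskers are 1 SE, and bands are the range when each of the 4 libraries was left out. No band crosses 0, and Sox4 at -2.47 is separated from Bach2 at -0.77.

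The levels of the genes were put in order per kilobase of exon (CPM per kb, exon lengths from GENCODE M1). In Mock, Ccr7 (170 ± 8.09) and Tcf7 (166 ± 2.54) were highest and did not differ beyond their spread. Klf2 (143 ± 4.89), S1pr1 (115 ± 0.0225) and Id3 (51.8 ± 4.78) followed. Il7r (20.9 ± 2.29) and Lef1 (17.9 ± 1.20) were close, and Sox4 (7.84 ± 0.595) and Bach2 (5.84 ± 0.679) were lowest, near the median of 7.05 CPM per kb over 12773 tested genes with a length (means ± SD, n = 2 each). Sox4 in Mock iTreg cells was thus a gene of middling level, expressed well above the floor of detection.

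In FeSO4 the order changed at several places. Tcf7 (199 ± 17.7 CPM per kb) stood above Ccr7 (143 ± 7.97). Klf2 (100.3 ± 15.6) and S1pr1 (99.2 ± 6.62) overlapped, as did Il7r (36.1 ± 7.87) and Id3 (35.9 ± 1.19). Lef1 was at 13.9 ± 1.65 and Bach2 at 3.43 ± 0.667, and Sox4 became the lowest of the 9 at 1.41 ± 0.113 CPM per kb (means ± SD, n = 2 each). The TCF-1 gene therefore was the highest of the set in iron-treated cells, while the SOX gene was the lowest.

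**Figure D3:**
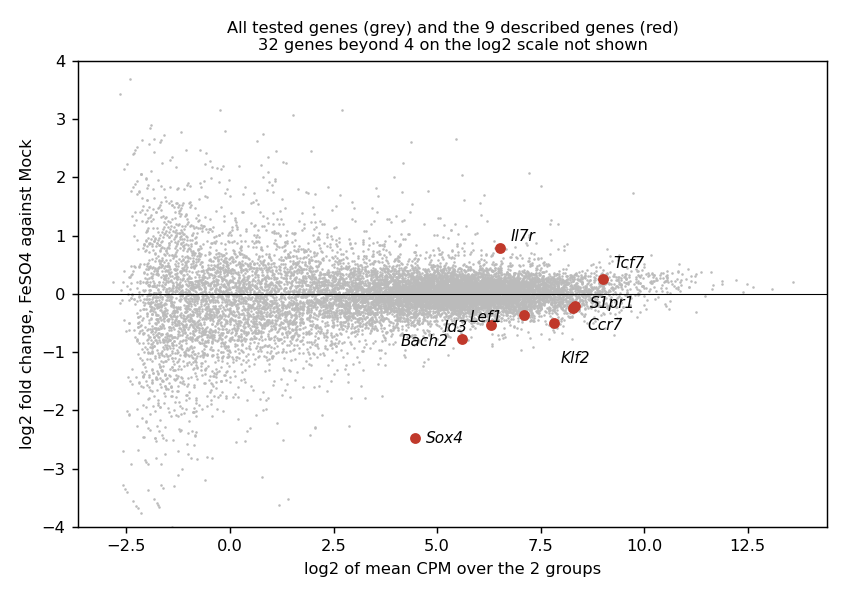
Log2 fold change against Mock (y axis) and log2 of the mean CPM of both groups (x axis) for the tested genes, with the 9 genes in red. The axis ends at 4 on the log2 scale, and 32 genes lie beyond it. Sox4 sits below the cloud of genes of its level, while S1pr1, Ccr7 and Tcf7 lie near the center line at high expression.

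The genes whose profile over the 4 libraries lay closest to Sox4 were Stxbp6, Sorl1, Cdc42bpg, Whrn and Tnik. Likeness was the Euclidean distance between log2 CPM profiles centered on each gene's mean, among 8513 other genes of at least 10 CPM. The distance was 0.85 for Stxbp6 and 1.23 to 1.31 for the other 4. Stxbp6 was at 15.18 and 24.25 CPM in Mock against 5.05 and 6.65 CPM in FeSO4, so it varied more between Mock libraries than Sox4 did. Tnik, a kinase that acts on TCF/β-catenin complexes, was at 34.0 and 37.2 CPM in Mock against 16.3 and 15.4 CPM in FeSO4. With only 4 libraries in 2 groups, a near profile means mainly a decrease in FeSO4. The log2 fold changes were -1.75 for Stxbp6 and -1.24 to -1.17 for the other 4, against -2.47 for Sox4. Sox4 ranked lowest among the tested genes averaging 10 CPM or more, so none of the 5 could have fallen further. Of the other 8 genes described here, Bach2 was nearest to Sox4, at 1.70.

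**Figure D4:**
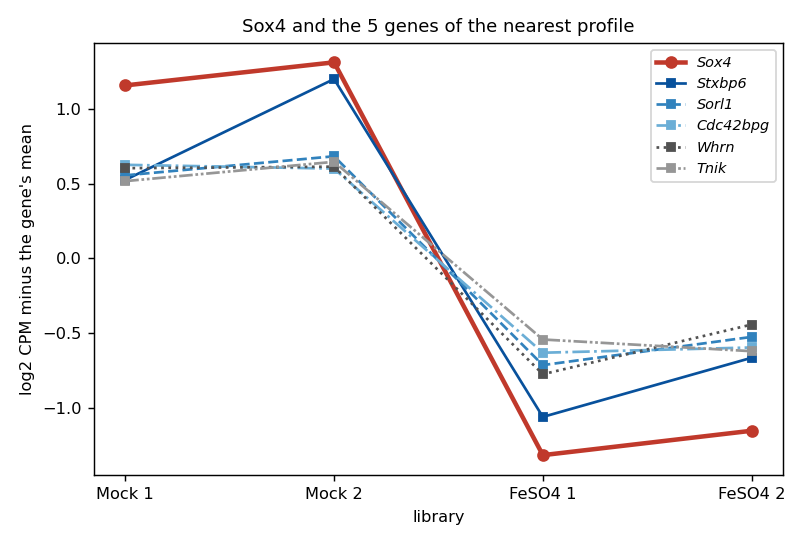
Log2 CPM minus the gene's mean over the libraries (y axis) in each library (x axis) for Sox4 (red) and the 5 genes of the nearest profile. All 6 are above their mean in both Mock libraries and below it in both FeSO4 libraries, with the widest step for Sox4. The 5 were drawn from genes among which Sox4 had the lowest log2 fold change.

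To place the 9 genes among related ones, 7 lists were tested in the same fit, without the 9 genes themselves. All 7 were chosen with earlier results of these libraries known. Their shares and medians are a description and no independent evidence of a direction. Of 42 other genes of naive or quiescent T cells, 14 fell and 7 rose, and 21 did not pass (edgeR quasi-likelihood test, adjusted p under 0.05 over all genes). The 33.3% that fell and the 16.7% that rose stand beside 8.89% and 10.6% of all tested genes, and the median log2 fold change was -0.205. Foxp1, a factor that enforces quiescence, fell from 168.6 and 191.5 CPM to 107.0 and 121.5 CPM (log2 fold change -0.66 ± 0.08, SE, adjusted p = 5.04e-05). The costimulatory receptor gene Cd27 fell by 0.72 ± 0.10 and the antiproliferative gene Btg1 by 0.50 ± 0.07 on the log2 scale (adjusted p = 0.000125 and 0.000126). Foxo1 itself, picked after its values were seen, fell by 0.32 ± 0.07 (adjusted p = 0.00314). Trat1, an adaptor of the T cell receptor complex, rose by 1.18 ± 0.11, Gimap4 by 0.61 ± 0.09 and Arl4c by 0.39 ± 0.06 (adjusted p = 2.9e-06, 0.00017 and 6e-04). Art2b, picked once its values were known, had 31 and 13 reads in Mock and 0 and 1 in FeSO4. Without FeSO4 replicate 2, 4 genes of the list rose instead of 7. The median was -0.11 without FeSO4 replicate 1 and -0.13 without Mock replicate 2.

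Of 39 other HMG-box genes matched, 22 passed the filter, and 3 of them rose, 1 fell and 18 did not pass the test. The 13.6% that rose and 4.55% that fell are close to or under the 10.6% and 8.89% of all tested genes. Most SOX genes were at or near 0 reads, and of the SOX family other than Sox4 only Sox5, Sox8 and Sox12 were tested. Sox12, the member of the SoxC group known to act in iTreg cells, was picked after its values were seen and was at 1.68 and 1.34 CPM in Mock against 1.02 and 0.919 CPM in FeSO4 (log2 fold change -0.64 ± 0.40, SE, adjusted p = 0.304). The chromatin genes Hmgb2, Hmgb3 and Hmgb1 rose by 0.38 ± 0.05, 0.52 ± 0.08 and 0.26 ± 0.06 on the log2 scale (edgeR adjusted p = 0.000173, 0.000387 and 0.00506). The repressor gene Cic fell by 0.34 ± 0.06 (adjusted p = 0.00126). The median of the list was 0.01 with TMM and -0.055 with library size only, and it was -0.01 without FeSO4 replicate 1 and 0.04 to 0.05 without any other single library, so its sign depended on the scaling and on the libraries used. More genes of the list fell without Mock replicate 1, Mock replicate 2 or FeSO4 replicate 2. Sox7, named to complete the count, was among those that fell without Mock replicate 2. It was not tested with all libraries, and had 16 reads in Mock replicate 1 and 0 in the other libraries.

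Of 31 tested TCF/LEF cofactors and Wnt target genes, 6 fell, 0 rose and 25 did not pass the test, with a median log2 fold change of -0.18. The 19.4% that fell stand beside 8.89% of all tested genes. Tnik fell by 1.17 ± 0.10 on the log2 scale (SE, edgeR adjusted p = 2e-06). Bcl9l, a coactivator of β-catenin, fell from 131 and 142 CPM to 88.85 and 97.26 CPM (log2 fold change -0.56 ± 0.07, adjusted p = 0.000109), and the corepressor gene Tle3 fell by 0.40 ± 0.06 (adjusted p = 0.000408). The β-catenin gene Ctnnb1, named after its values were seen, was at 445.3 and 445.4 CPM in Mock against 438 and 417 CPM in FeSO4 (adjusted p = 0.543). At an unadjusted p under 0.05 in edgeR, 1 gene of the list, Axin2, named to complete the count, was higher (adjusted p = 0.0937), and DESeq2 and limma-voom called 0 higher. Without FeSO4 replicate 1, 1 gene rose. The median was -0.11 without Mock replicate 1 or FeSO4 replicate 1.

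Of 31 tested FOXO target genes, 8 fell, 4 rose and 19 did not pass the test, with a median of -0.16. Beside the shares of all tested genes, 25.8% fell (8.89% of all) and 12.9% rose (10.6% of all), so the share that rose is near the background. Txnip, which limits glucose uptake, fell from 374 and 395 CPM to 211.8 and 240.0 CPM (log2 fold change -0.77 ± 0.07, SE, edgeR adjusted p = 3.01e-06). Foxo3 fell by 0.53 ± 0.08 and Irs2, an adaptor of insulin receptor signaling, by 0.55 ± 0.09 (adjusted p = 0.000279 and 0.000763). Cited2 rose by 0.30 ± 0.09, the autophagy gene Gabarapl1 by 0.32 ± 0.10 and the catalase gene Cat by 0.21 ± 0.07 (adjusted p = 0.0318, 0.034 and 0.0361). The fourth gene that rose, named to complete the count after its values were seen, was Fasl, which encodes the death ligand (0.91 ± 0.29, adjusted p = 0.0384). The calls of genes that rose were weak, with 0 left without Mock replicate 1 (Cited2 0.32, Gabarapl1 0.29, Cat 0.20 and Fasl 0.84) or Mock replicate 2 (0.29, 0.34, 0.22 and 0.98) and 1 without FeSO4 replicate 1 or 2, and with library size only 0 rose. Without FeSO4 replicate 1 the call of Cited2 held (0.37) while Gabarapl1 was at 0.19, Cat at 0.18 and Fasl at 1.06, and without FeSO4 replicate 2 that of Gabarapl1 held (0.44) while Cited2 was at 0.25, Cat at 0.245 and Fasl at 0.75. Fewer genes fell without Mock replicate 2, and also without FeSO4 replicate 1, where the median was -0.10. Pck1, named to complete the count, was among those that fell without Mock replicate 2. It was not tested with all libraries, and had 15 reads in Mock replicate 1 and 0 in the other libraries.

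Of 17 tested KLF, E protein and ID genes, 5 fell, 1 rose and 11 did not pass the test, with a median of -0.18. The shares were 29.4% lower and 5.88% higher, against 8.89% and 10.6% of all tested genes. Klf10 and Klf11, TGF-β-inducible members of the Klf2 family, fell by 0.70 ± 0.08 and 0.71 ± 0.11 on the log2 scale (SE, edgeR adjusted p = 3.43e-05 and 0.000499). Klf3, a repressor of the same family, fell by 0.60 ± 0.13 (adjusted p = 0.00425), and that call was lost with DESeq2. Leaving out FeSO4 replicate 1 gave -0.34, and leaving out FeSO4 replicate 2 gave -0.91 for Klf3. The other genes that fell, Klf4 and Klf9, named likewise to complete the count, were close to the threshold (adjusted p = 0.0495 and 0.046). Both calls were lost with DESeq2, with limma-voom and with no filter. They were also lost without Mock replicate 1 (-0.76 and -0.39), Mock replicate 2 (-0.84 and -0.50) or FeSO4 replicate 1 (-0.63 and -0.40). The call of Klf9 was also lost without FeSO4 replicate 2 (-0.49). Klf6 rose from 142.6 and 165.5 CPM to 221.5 and 222.8 CPM (0.53 ± 0.07, adjusted p = 0.000149). Id2, the ID gene of effector cells, was named after its values were seen and was at 71.0 and 63.8 CPM in Mock against 67.75 and 67.65 CPM in FeSO4 (adjusted p = 0.971). The number that fell was 3 without Mock replicate 2 or FeSO4 replicate 1. The median was -0.31 without Mock replicate 1, -0.10 without Mock replicate 2 and -0.28 without FeSO4 replicate 2.

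Of 24 tested partners of S1PR1, CCR7 and the IL-7 receptor, 5 fell, 2 rose and 17 did not pass the test, with a median of -0.12. Of the list, 20.8% fell and 8.33% rose, where 8.89% and 10.6% of all tested genes did, so the share that rose is near the background. Stat5a, which transmits IL-7 and IL-2 signals, fell from 155 and 152 CPM to 115.2 and 110.2 CPM (log2 fold change -0.45 ± 0.07, SE, edgeR adjusted p = 0.00026). Stat5b fell by 0.24 ± 0.06 (adjusted p = 0.0141). Jak1 and the arrestin gene Arrb1, named to complete the count, also fell (adjusted p = 0.0227 and 0.0325). The calls of Stat5b, Jak1 and Arrb1 were lost without Mock replicate 2 (-0.20, -0.17 and -0.26) or FeSO4 replicate 1 (-0.20, -0.20 and -0.16), and that of Jak1 also without FeSO4 replicate 2 (-0.21), where Arrb1 was at -0.485. Cd69, whose protein holds S1PR1 off the cell surface, fell by 0.38 ± 0.10 (adjusted p = 0.0131), a call that was lost with DESeq2 (adjusted p = 0.204) and without Mock replicate 2, where the log2 fold change was -0.17. Without Mock replicate 1 it was -0.57. The receptor gene S1pr3 rose from 3.65 and 3.95 CPM to 6.655 and 7.97 CPM (0.95 ± 0.20, adjusted p = 0.00461), and Jak3 rose by 0.225 ± 0.06 (adjusted p = 0.0184), a call lost without FeSO4 replicate 2 (0.175). The counts of this list changed with the libraries used: 1 gene fell without Mock replicate 2, 2 without FeSO4 replicate 1 and 8 without FeSO4 replicate 2 (4 of them not called with all libraries), and 1 rose without FeSO4 replicate 2. The median was -0.02 without Mock replicate 1.

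The list of activation and effector genes went the other way, with 19 of 36 tested genes up, 2 down and 15 that did not pass. The 52.8% that rose and the 5.56% that fell stand beside 10.6% and 8.89% of all tested genes, and the median was 0.496. The list holds molecules, Icos and Il10 among them, that the study describes for Treg cells. Like the other lists it was chosen with earlier results of these libraries known, so it is no independent evidence of its direction. The costimulatory receptor gene Icos rose from 103.9 and 104.4 CPM to 159.8 and 157.9 CPM (log2 fold change 0.61 ± 0.07, SE, edgeR adjusted p = 1.54e-05). The chemokine receptor gene Ccr4 rose by 0.64 ± 0.07 and the effector factor gene Irf4 by 0.57 ± 0.07 (adjusted p = 1.55e-05 and 4.76e-05). Il2rb and Bhlhe40 fell by 0.23 ± 0.06 and 0.24 ± 0.06 (adjusted p = 0.0149 and 0.015). Both calls were lost without Mock replicate 2 (-0.17 and -0.18), that of Il2rb also without FeSO4 replicate 1 (-0.21) and that of Bhlhe40 without FeSO4 replicate 2 (-0.21). Prdm1, which encodes Blimp-1, is repressed by Bach2 and was named after its values were seen, rose from 0.690 and 1.03 CPM to 2.685 and 4.052 CPM (1.97 ± 0.36, adjusted p = 0.00151). It stood at 28 and 43 reads in Mock and 92 and 150 in FeSO4, so its level stayed low. The number that fell was 1 without FeSO4 replicate 1 or FeSO4 replicate 2. It was also 1 without Mock replicate 2, but that gene was Tnfrsf18 (-0.24, adjusted p = 0.047), which was not called with all 4 libraries and is named to complete the count.

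**Figure D5:**
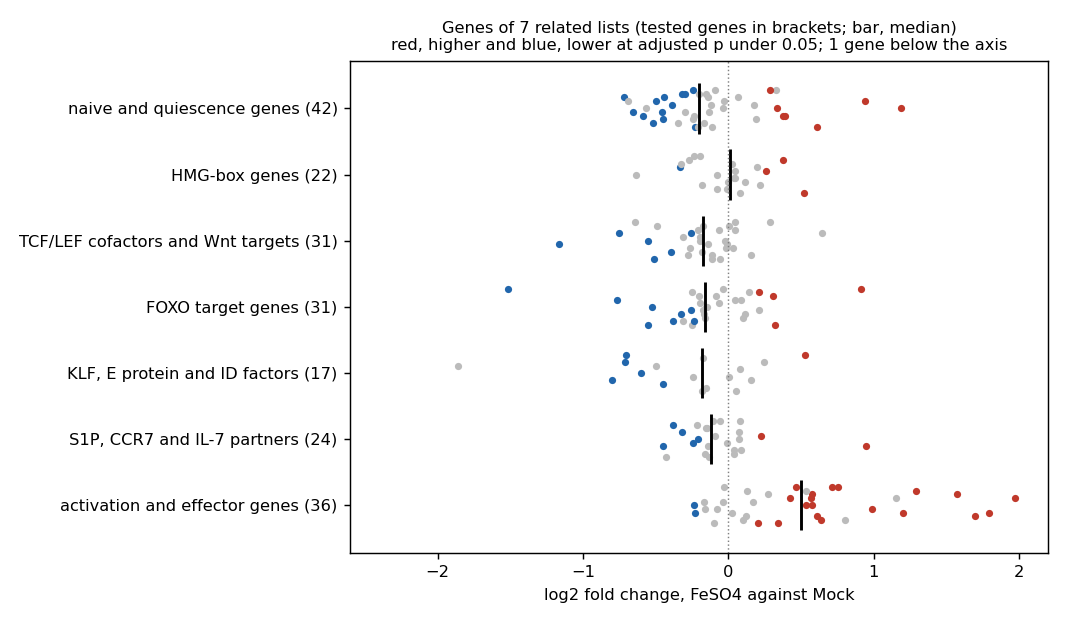
Log2 fold change of FeSO4 against Mock (x axis) for each tested gene of the 7 lists (y axis), in red where higher and blue where lower at an adjusted p under 0.05, grey otherwise, with a bar at the list's median. 1 gene, Art2b, lies below the axis. The activation and effector list has its median at 0.496, and the naive and quiescence list at -0.205.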

How the data were processed

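RNA-seq libraries of 4 iTreg cultures (2 Mock, 2 FeSO4) were used as the raw read counts per Ensembl gene that the authors deposited. The submitters' processing notes name Trim Galore 0.6.7, STAR 2.7.9a, featureCounts and mm10, whereas the study's methods name mm9, and the 5 closing rows carry names in the style of htseq-count. The strand setting and annotation version were not given in the sources used here, so reads of overlapping antisense genes cannot be told apart. The 5 rows of unassigned reads (no feature 4.36 to 6.03%, ambiguous 3.78 to 3.91%, low quality 0.802 to 0.988%, not aligned 1.8 to 2.31%, not unique 4.27 to 4.62%) were left out. Symbols matched 32799 of 47729 IDs. Positions, upstream sequences and motif shares come from RefSeq GRCm38.p6, and exon lengths and exon overlaps from GENCODE M1.

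Genes were filtered by filterByExpr (13732 kept, 99.95% of gene reads), TMM-scaled and tested with edgeR 4.0.16 (quasi-likelihood F test, Benjamini-Hochberg adjustment, threshold 0.05) in R 4.3.3, on the 4 libraries with group as the only term. The code was tested on simulated data. SE was taken as the log2 fold change over the root of F. Profiles used log2 CPM with a prior count of 2. Alternatives were DESeq2 1.42.0, limma-voom 3.58.1, 3 other scalings, no filter, a replicate block and each library left out. From each list, up to 3 genes of smallest p in each direction were named, with the 9 genes, the 5 nearest profiles, Foxp3, Maf and markers. Genes outside this rule are marked in the text as named after their values were seen or to complete a count. The members and lists were chosen with earlier results of these data known. The methods give 2 pairs of samples from 2 independent experiments without saying which libraries form a pair, so the fit has no pair term and p-values measure the spread between these libraries. Replicates of both groups differed beyond sampling noise (chi-square per degree of freedom 11.3 in Mock and 9.02 in FeSO4).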

Additional observations from a re-analysis of the deposited data

How the results depend on the processing

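Over 11 alternatives the 9 genes gave 99 log2 fold changes, of which 0 changed sign and 8 missed the threshold. Of these 8, 7 came from leaving out a library and 1 was Tcf7 with library size only (0.20). Across all genes, 1455 were higher and 1221 lower, and leaving out 1 library gave 927 to 1159 and 799 to 1030. The share of higher genes among calls was 54.4% with TMM and 34.9% with library size only (939 higher), which moved the median of all genes to -0.07. Library size only also gave 0 higher FOXO targets, 3 lower HMG-box genes, and 9 lower and 1 higher partners of S1PR1, CCR7 and the IL-7 receptor. Upper quartile scaling gave 2 lower HMG-box genes. DESeq2, limma-voom and no filter each gave 3 lower KLF, E protein and ID genes, and no filter brought the HMG-box median to -0.18 and that of the KLF, E protein and ID genes to -0.34. The cause was not tested. Leaving out 1 library gave 0 to 1 higher and 3 to 7 lower FOXO targets, 1 to 3 lower HMG-box genes, 3 to 5 lower KLF, E protein and ID genes, 4 to 8 higher naive and quiescence genes, 1 to 3 higher and 1 to 8 lower partners of the receptors, 0 to 1 higher TCF/LEF and Wnt genes, and 1 to 2 lower activation and effector genes. Of 70 named genes, 44 kept their direction and their side of the threshold throughout. With replicate number as a block, 1743 genes were higher and 1467 lower, the 9 genes kept their calls and 2 HMG-box genes were lower. The study's 2 pairs come from 2 experiments, but the sources used here do not tie the replicate numbers to the pairs. Libraries of the same number showed no common deviation (r = 0.03 across 13732 genes, which are not independent replicates), which does not settle whether the numbers mark the pairs. Most SOX genes were too shallow to pass the filter on low counts.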

Other observations

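In each of the 9 genes FeSO4 replicate 2 had a higher CPM than FeSO4 replicate 1, also in the 7 genes that were lower in FeSO4 than in Mock. The share of all tested genes with this order was not counted, so it is not read as a trait of the 9 genes. The difference between FeSO4 replicates on the log2 scale was widest for Il7r (-0.45) and Bach2 (-0.40), replicate 1 minus replicate 2. Foxp3 had the same order, at 376 CPM in FeSO4 replicate 1 and 472 CPM in FeSO4 replicate 2. Maf, a factor of Treg and effector cells, was at 66.9 and 71.0 CPM in Mock and at 98.19 and 98.2 CPM in FeSO4 (log2 fold change 0.51 ± 0.07, SE, edgeR adjusted p = 0.000212).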
